A study of Mus musculus with 6 samples.

Results

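The subunits of the mitochondrial respiratory chain that are encoded in the nucleus were followed in the colon of mice labelled Il10 knockout (IL10-/-) and of mice labelled WT. The members were the protein-coding rows of the deposited gene table whose symbols name a subunit of complexes I to V, cytochrome c1 or cytochrome c, and 87 of 54532 rows met this rule. They comprised 35 rows of complex I, 4 of complex II, 9 of complex III, 1 of cytochrome c, 20 of complex IV and 18 of complex V. Ndufa4 and its paralog Ndufa4l2 carry complex I names but were placed with complex IV, to which the Ndufa4 protein is now assigned. The rule does not reach subunits with other symbols, such as Ndufab1 and Usmg5. The study holds 3 libraries labelled IL10-/- and 3 labelled wild type, all from whole colon of C57BL/6 mice at postnatal day 56, made from total RNA. Interleukin 10 restrains immune responses, and its loss is a widely used mouse model of colitis. Neither the allele nor the housing is given in the sources used here, and the labels do not say whether each library is a mouse of its own, so p-values measure only the spread between these libraries, which may be technical. The comparison asks how colonic RNA differs between the genotypes.

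The respiratory chain carries electrons from NADH and succinate to oxygen and uses the energy to pump protons across the inner mitochondrial membrane. Complex I oxidises NADH and complex II oxidises succinate, both pass electrons through ubiquinone to complex III, cytochrome c shuttles them on to complex IV, and complex V makes ATP from the returning protons. Complexes I, III, IV and V each combine nuclear-encoded subunits with subunits encoded by mitochondrial DNA, while complex II is wholly nuclear-encoded. Colonic epithelial cells are rich in mitochondria and draw much of their energy from oxidising short-chain fatty acids made by gut bacteria.

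Values were FPKM, fragments scaled by gene length and by a library size set by the authors. Whole reads recovered from the FPKM values totalled 13107941 to 15797928 per library, and counting error is therefore small for all but the lowest members. The check of the targeted gene goes against a loss of its RNA: Il10 was at 13.8, 10.6 and 14.5 FPKM in the knockout-labelled libraries, against 0.757, 0.173 and 0.177 FPKM in WT libraries (log2 fold change 3.36, SE 0.25, adjusted p = 0.0092 in limma). The reads are summed over the whole gene, so they do not test the labels exon by exon, and each direction reported takes the labels at face value. Of the 21 other settings tried, those that ended the Il10 call gave an adjusted p of 0.0541 with no filter, 0.0589 with a pseudocount of 0.01, 0.114 by voom, 0.0590 without knockout library 2, 0.0671 without knockout library 3, 0.0618 without WT library 3 and 0.0773 without WT libraries 2 and 3. Over all genes, 23 of 12668 rose and 0 fell (limma, Benjamini-Hochberg adjusted p under 0.05), with 778 higher and 510 lower at an unadjusted p under 0.05. The WT libraries stood further apart from each other than the knockout ones: the median gene spanned 0.91 log2 units over the 3 WT libraries, against 0.47 over the 3 libraries labelled knockout.

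Promoter sequences are shown for the member with the highest level, for the mobile electron carrier, and for the member with the smallest p in the comparison. All come from RefSeq (GRCm38.p6), read 5′ to 3′ on the gene's strand and ending at the base before the start that the RefSeq table gives. For Cycs that start lies upstream of the gene in the deposited table, with 31 bases between the window and the gene, and the bases after it matched no GENCODE M21 transcript of Cycs, whereas those of Cox6a1 and Cox8b did. Capitals mark the letters GCATGCGC on either strand, known as the core of the binding motif of nuclear respiratory factor 1 (NRF1), where overlapping matches run together, and CCGGAAG or its complement, the core of ETS family sites such as those of GABPA. Both factors are known regulators of respiratory chain genes.
Cox6a1, chr5:115348959-115349138, minus strand: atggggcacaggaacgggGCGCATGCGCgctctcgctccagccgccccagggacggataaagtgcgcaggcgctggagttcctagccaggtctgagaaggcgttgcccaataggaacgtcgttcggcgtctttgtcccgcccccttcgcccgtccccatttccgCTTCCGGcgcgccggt
Cycs, chr6:50566570-50566689, minus strand: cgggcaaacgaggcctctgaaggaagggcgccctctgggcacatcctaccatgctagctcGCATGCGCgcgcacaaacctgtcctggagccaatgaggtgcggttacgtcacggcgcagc
Cox8b, chr7:140900447-140900566, minus strand: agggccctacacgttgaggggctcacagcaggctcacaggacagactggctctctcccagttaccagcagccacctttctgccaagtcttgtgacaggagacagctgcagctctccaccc

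Of the 86 member symbols, 67 were matched in the RefSeq promoter table, and motifs were searched on both strands in the 250 bases before the start. GCATGCGC was found in 9 of the 67 (13.4%), against 2.32% of all 27025 promoters and 4.30% of the 9010 promoters of other genes tested here. The 9 members with GCATGCGC were Cox6a1, Cycs, Sdhb, Ndufa6, Ndufa8, Ndufa11, Atp5g2, Atp5k and Atp5l. CCGGAAG was found in 11 of the 67 (16.4%), against 7.05% of all promoters and 13.9% of those of other genes tested. TATAAA was found in 6 of the 67 (8.96%), against 13.0% of all promoters and 6.99% of those of other genes tested. A CCAAT box was found in 30 of the 67 (44.8%), against 34.5% of all promoters and 35.9% of those of other genes tested.  Members with GCATGCGC had a median log2 fold change of 0.34 between the groups and those without it 0.32. A match is a description of these letters and not evidence of a bound factor.

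None of the respiratory chain members passed the threshold between the groups, although most had slightly higher values in the libraries labelled knockout. Of the 87 members, 83 had a mean of at least 1 FPKM and were tested. The other 4 were Cox6a2, which was under that level, and Cox7b2, Cox8c and the second of 2 rows named Atp5o, which had no read in any library. Of the 83, 0 rose and 0 fell at an adjusted p under 0.05 by limma, against 0.182% of all genes called higher and 0% called lower. At an unadjusted p under 0.05, 0 were higher, against 6.14% of all genes, and 2 were lower (Cox8b and Ndufb2), against 4.03%. Voom on the recovered reads likewise gave 0 calls among the members. Weighting each library by its fitted quality gave 1 call, Cox8b, among the members, while it called 1.87% of all genes higher and 0.742% lower. Without WT library 2, 31 members were higher at an unadjusted p under 0.05, against 14.8% of all genes, and 0 passed the adjusted threshold.

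The direction was nevertheless shared. Log2 fold changes, which set knockout-labelled over WT libraries after adding 1 to each FPKM value, were above 0 for 73 of the 83 tested members and below 0 for 10, with a median of 0.32. Among all genes 54.1% were above 0 and 45.9% below, and the median was 0.04. Level bears on this share, because 68.6% of the 4035 genes with a mean of at least 10 FPKM were above 0, with a median of 0.20. Of the 76 members at that level 72 were above 0, with a median of 0.33. The shared direction depended on WT library 3: without it 50 of the 83 were above 0 and the median was 0.06, against 76 of 83 and 0.62 without WT library 2. It also depended on scaling, since quantile normalization left 45 of 83 above 0 with a median of 0.04, and an equal sum over nuclear genes left 54 with a median of 0.12 while the median of all genes moved to -0.13.

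**Figure D1:**
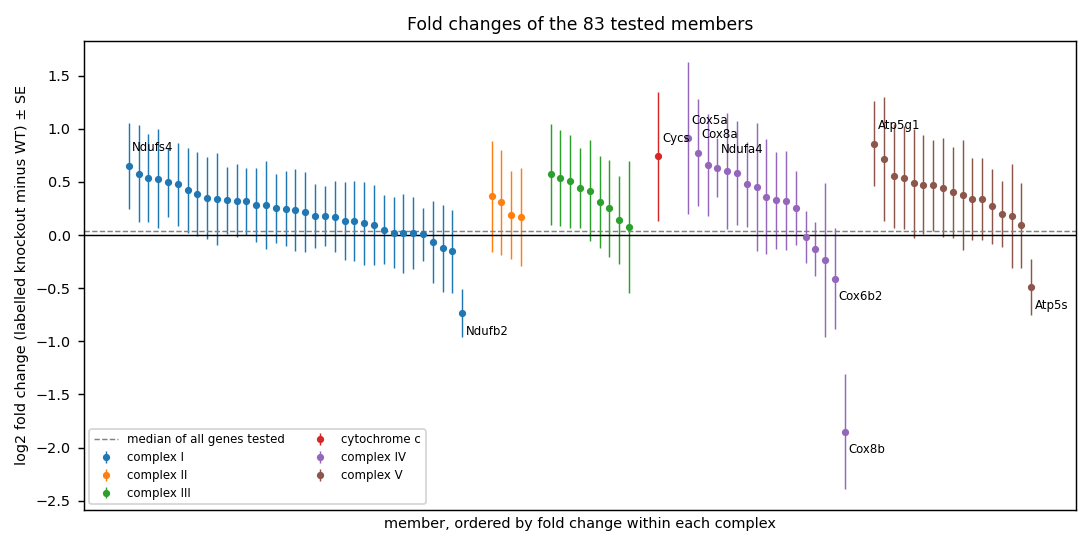
Log2 fold change (libraries labelled Il10 knockout minus WT, log2(FPKM + 1) scale) of the 83 tested members with its SE as bars, ordered within each complex, with the median of all genes tested as a dashed line. Most points lie between 0 and 0.91 and many of their bars cross 0, while Cox8b at -1.85 and Ndufb2 at -0.73 lie lowest.

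What set the libraries apart was the spread within WT. Mean log2(FPKM + 1) over the 83 members was 6.73, 6.34 and 6.35 in libraries 1 to 3 labelled knockout, against 6.11, 6.80 and 5.71 in WT libraries 1 to 3. WT library 2 thus had the highest mean of the 6 and WT library 3 the lowest, and the libraries labelled knockout lay between them. WT library 2 was the highest of the 6 libraries for 41 of the 83 members, against 29.9% of all genes, and WT library 3 was the lowest for 67 of them, against 28.4% of all genes. WT library 2 lay above WT library 3 for 77 of the 83 members, by a median of 1.14 log2 units, whereas over all genes it did so for 53.1%, by a median of 0.08. The range over the WT libraries exceeded the absolute difference between the groups for 81 of the 83, and for 87.6% of all genes. Summed over all members, levels were 16602, 12067 and 11953 FPKM in the knockout-labelled libraries, against 9743, 16956 and 6534 FPKM in WT libraries.

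**Figure D2:**
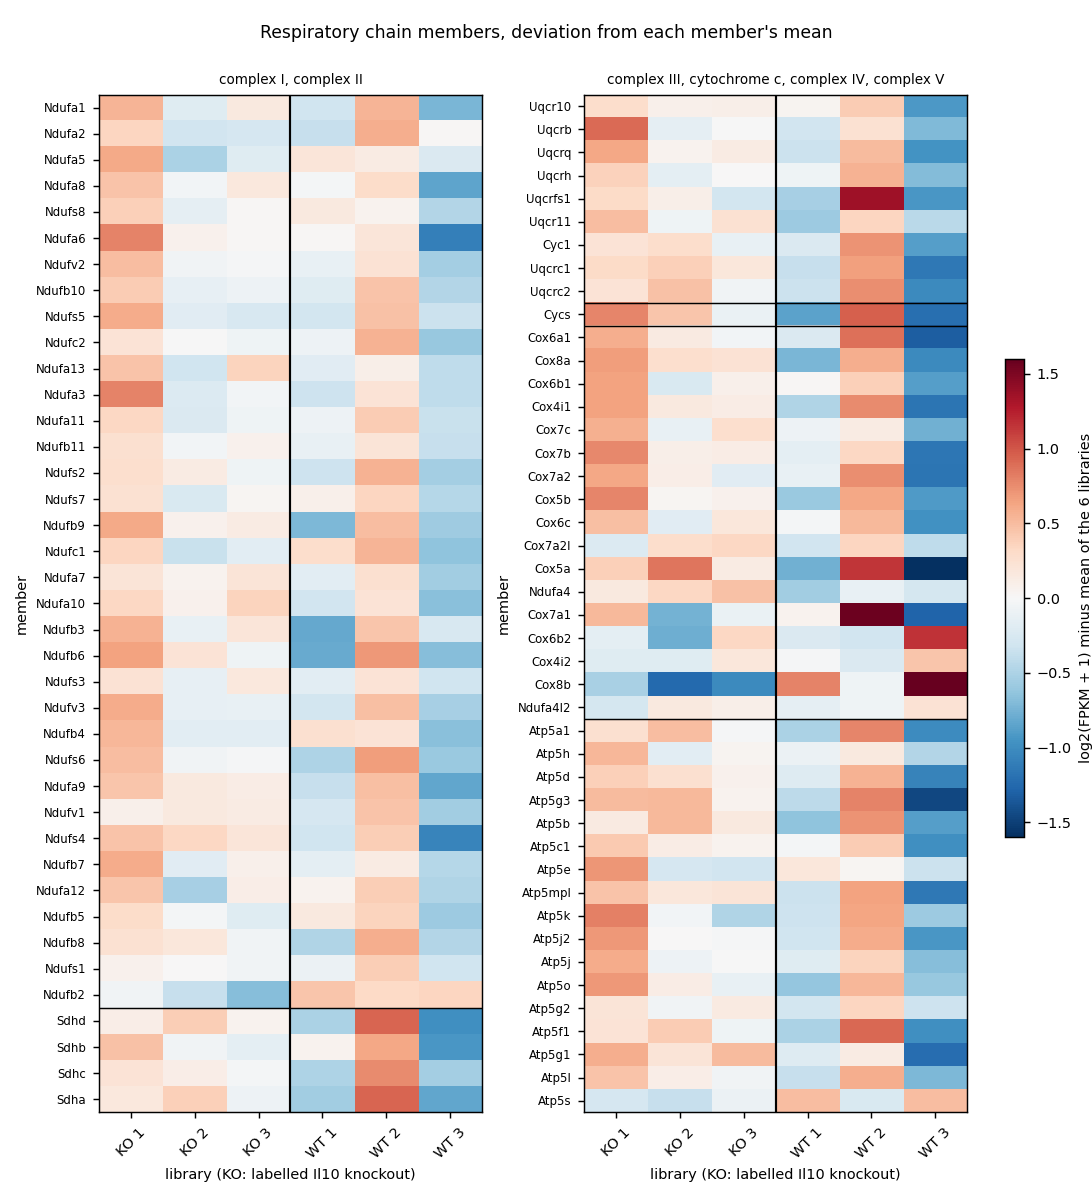
Deviation of each of the 83 tested members from its own mean over the 6 libraries, in log2(FPKM + 1), with libraries labelled Il10 knockout left of WT and colours saturating at 1.6 units. WT library 3 is blue for most rows and WT library 2 red, while Cox8b, Cox6b2, Cox4i2, Atp5s and Ndufb2 are among the few that are red in WT library 3.

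The size of this spread differed between the complexes. From WT library 3 to WT library 2 the median member of complex I differed by 0.88 log2 units, that of complex II by 1.66, that of complex III by 1.46, that of complex IV by 1.48 and that of complex V by 1.34, and Cycs by 2.16. Cox5a had the widest range over the 6 libraries among members with reads in all of them, 7.91-fold, followed by Cox7a1 at 7.65-fold, Cox6b2 at 5.25-fold, Uqcrfs1 at 4.92-fold and Atp5g3 at 4.84-fold. The narrowest ranges were those of Ndufs3 at 1.46-fold, Ndufb11 at 1.55-fold and Atp5g2 at 1.61-fold. These differences between complexes describe 2 libraries and were given no test.

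The mean of epithelial markers had the same extremes as that of the members, and markers of other cell types ran differently. Mean log2(FPKM + 1) of 16 colonic epithelial markers, all tested, was 9.06, 8.80 and 8.29 in the knockout-labelled libraries, against 7.66, 9.80 and 7.22 in WT libraries, so WT library 2 was again the highest and WT library 3 the lowest. By single marker, WT library 2 was the highest for 10 of the 16, against 29.9% of all genes. WT library 3 was the lowest for 10, against 28.4% of all genes. The rest peaked in knockout-labelled libraries. Log2 fold changes were positive for 13 of the 16 (median 0.80), against 54.1% of all genes. They were negative for 3, Aqp8 (-1.78), Slc26a3 (-1.32) and Car1 (-0.06). The summed level of the 16 markers was 10938 to 22133 FPKM in the knockout-labelled libraries, against 3719 to 49325 FPKM in WT libraries. Car1 alone made up 31511 FPKM of the 49325 FPKM, which was the sum of WT library 2. The summed level of 12 smooth muscle markers ran the other way at its extreme. It was 218 to 1306 FPKM in the knockout-labelled libraries, against 1671 to 11099 FPKM in WT libraries, where WT library 3 held the highest value. The 10 leukocyte markers summed to 816 to 1754 FPKM in the knockout-labelled libraries, against 79.3 to 303 FPKM in WT libraries, with the lowest value in WT library 2, where the members were highest. S100a8 and S100a9 made up most of the knockout-labelled sums, at 282 to 1153 and 225 to 462 FPKM, against at most 0.223 FPKM in WT libraries. All knockout-labelled libraries lay above all WT libraries for 3 of the 10, against 8.84% of all genes. The groups overlapped for the other 7, among them Ptprc (log2 fold change 0.14, SE 0.42). The 11 markers of enteric neurons and glia summed to 13.2 to 51.4 FPKM in the knockout-labelled libraries, against 48.0 to 325 FPKM in WT libraries. The 7 pericyte markers summed to 18.1 to 46.6 FPKM in the knockout-labelled libraries, against 33.7 to 189 FPKM in WT libraries. Both sums were highest in WT library 3, where Rgs5 alone made up 159 FPKM of the 189 FPKM. Of the 11 neuron and glia markers 10 had negative log2 fold changes, and of 5 pericyte markers tested 4 did, against 45.9% of all genes. The positive ones were Ret (0.61) and Pdgfrb (0.31). None of the markers of epithelium, smooth muscle, neurons and glia or pericytes was at 0 in any library, and S100a8 or S100a9 accounted for the leukocyte markers at 0 in WT. In whole colon, fewer cells of a type and less RNA per cell cannot be told apart, and the part of these markers in the respiratory chain levels was not tested.

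**Figure D3:**
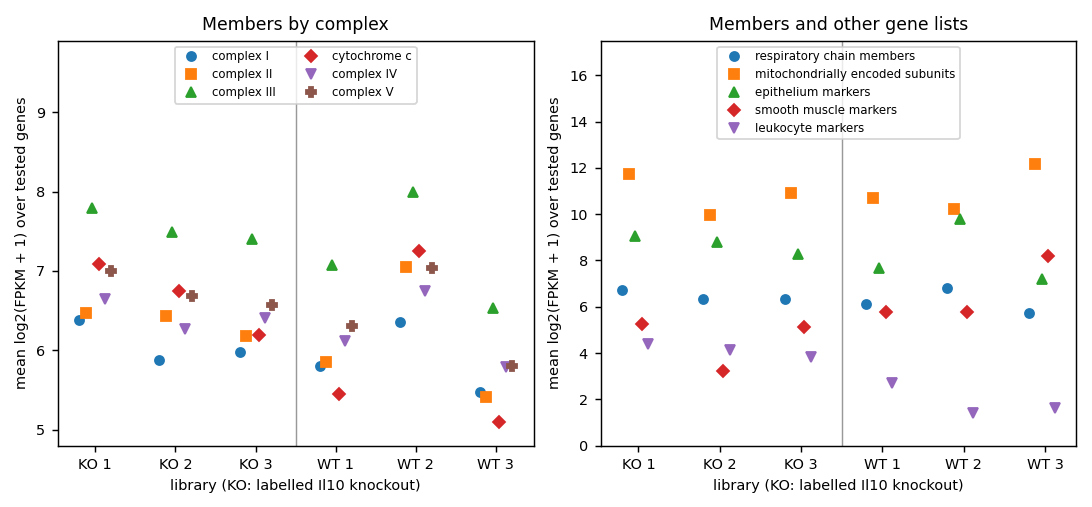
Mean log2(FPKM + 1) per library over the tested members of each complex (left) and over all members beside other gene lists (right), libraries labelled Il10 knockout left of WT; points are single libraries with no error bars. All complexes are highest or nearly so in WT library 2 and lowest in WT library 3, epithelial markers share these extremes, and smooth muscle markers peak at 8.18 in WT library 3.

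Complex I, the NADH dehydrogenase, gave the smallest median difference in the main fit, close to the 0.25 of complex II. Their order was reversed without WT library 3 (complex I 0.05, complex II -0.03) and without knockout library 2 (0.29 and 0.22). Of the 35 members of complex I, all tested, 31 had a positive log2 fold change and 4 a negative one. Their median was 0.23, and 0 passed the threshold. The 7 core subunits, which hold the flavin and the iron-sulfur clusters, were all above 0 but by little (0.01 to 0.28, median 0.18), and the 28 accessory subunits had a median of 0.26. Ndufv1, which binds NADH and the flavin, was at 40.1, 42.4 and 41.4 FPKM in the knockout-labelled libraries, against 31.1, 52.0 and 25.4 FPKM in WT libraries. The groups overlapped, with the knockout libraries close together and the WT libraries on both sides of them (log2 fold change 0.25, SE 0.33, adjusted p = 0.845 in limma). Ndufs1, the largest iron-sulfur subunit, was at 9.44, 8.97 and 8.54 FPKM in the knockout-labelled libraries, against 8.35, 12.1 and 6.99 FPKM in WT libraries, with almost no difference between the means (log2 fold change 0.0067, adjusted p = 0.995 in limma). Its deposited gene length of 8086 bases includes far more than the coding sequence, and the effect of that length on its FPKM was not tested.

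Among accessory subunits, Ndufs4, whose loss causes Leigh syndrome in humans, had the highest log2 fold change of complex I at 0.65 (SE 0.40, adjusted p = 0.634 in limma). It was at 49.6, 45.3 and 41.4 FPKM in the knockout-labelled libraries, against 28.6, 47.7 and 16.7 FPKM in WT libraries, and WT library 2 lay inside the knockout range. Ndufa10 was at 72.4, 60.5 and 73.7 FPKM in the knockout-labelled libraries, against 46.5, 67.2 and 35.9 FPKM in WT libraries (log2 fold change 0.50, SE 0.32, adjusted p = 0.65). Ndufa1 and Ndufa2, the members of complex I with the highest mean levels, averaged 210 ± 54.6 and 179 ± 48.3 FPKM in the knockout-labelled libraries, against 174 ± 82.1 and 202 ± 68.5 FPKM in WT libraries (SD, n = 3 each), with log2 fold changes of 0.34 and -0.15.

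Ndufb2, an accessory membrane-arm subunit, had the lowest of the 4 negative log2 fold changes in complex I. Ndufb2 (ENSMUSG00000002416, GRCm38 chromosome 6, 39592574 to 39603382, plus strand) had values of 3.56, 2.67 and 1.95 FPKM in the knockout-labelled libraries, against 5.41, 4.91 and 4.99 FPKM in WT libraries. Each knockout library lay below each WT library, as for 7.89% of all genes. The log2 fold change was -0.73 (SE 0.23, unadjusted p = 0.0144, adjusted p = 0.372 in limma), and the adjusted p was between 0.0691 and 1.0 over the alternatives. It rested on 179 to 253 reads per knockout library and 363 to 491 per WT library. Its mean level was the lowest of complex I, in a table that gives its length as 5628 bases. It overlaps Braf on the opposite strand by 146 bases and 2 further genes, and the strand setting of the counting is not given, so reads of the overlap cannot be assigned.

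Complex II, succinate dehydrogenase, links the chain to the citric acid cycle. All 4 members had positive log2 fold changes (0.17 to 0.37, median 0.25), and 0 passed the threshold. Sdha, the flavoprotein that oxidises succinate, was at 47.5, 55.1 and 39.9 FPKM in the knockout-labelled libraries, against 28.4, 81.3 and 23.2 FPKM in WT libraries. The WT values enclosed the knockout values on both sides, and the same held for Sdhb, Sdhc and Sdhd. Sdhd, a membrane anchor, was at 126, 154 and 123 FPKM in the knockout-labelled libraries, against 82.6, 226 and 59.1 FPKM in WT libraries (log2 fold change 0.37, SE 0.52, adjusted p = 0.854 in limma). Sdhb, the iron-sulfur subunit, averaged 110 ± 27.1 FPKM in the knockout-labelled libraries, against 106 ± 52.4 FPKM in WT libraries, and Sdhc averaged 63.9 ± 5.53 FPKM in knockout-labelled libraries, against 61.4 ± 34.8 FPKM in WT libraries (SD, n = 3 each). Without WT library 3 the median of complex II was -0.03.

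Complex III, which passes electrons from ubiquinol to cytochrome c, had 9 members, all with positive log2 fold changes (0.08 to 0.57, median 0.42) and 0 past the threshold. The core proteins Uqcrc1 and Uqcrc2 had a median of 0.50, and the redox subunits Uqcrfs1 and Cyc1 one of 0.16. Uqcrfs1, the Rieske iron-sulfur protein, was at 242, 210 and 160 FPKM in the knockout-labelled libraries, against 135, 502 and 102 FPKM in WT libraries. WT library 2 lay far above every other library, and the log2 fold change of 0.08 had an SE of 0.62. Cyc1, cytochrome c1, was at 143, 150 and 113 FPKM in the knockout-labelled libraries, against 105, 204 and 66.6 FPKM in WT libraries. Uqcrc1 was at 88.5, 92.6 and 80.6 FPKM in the knockout-labelled libraries, against 54.9, 113 and 31.6 FPKM in WT libraries (log2 fold change 0.57, SE 0.48, adjusted p = 0.731 in limma). Of the small subunits, Uqcr10 had the highest level, averaging 503 ± 40.4 FPKM in the knockout-labelled libraries, against 433 ± 181 FPKM in WT libraries (SD, n = 3 each). Uqcrb, Uqcrq and Uqcr11 had log2 fold changes of 0.51, 0.54 and 0.45.

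Cytochrome c itself, encoded by Cycs, carries electrons from complex III to complex IV and triggers caspase activation when released from mitochondria. Cycs was at 135, 106 and 72.3 FPKM in the knockout-labelled libraries, against 42.5, 152 and 33.2 FPKM in WT libraries. Its log2 fold change of 0.74 was within the spread of the WT libraries (SE 0.61, adjusted p = 0.73 in limma), and it was 1.40 without WT library 2 and 0.32 without WT library 3.

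Complex IV, cytochrome c oxidase, reduces oxygen to water and held the member with the highest level. Of its 20 members 17 were tested, and 12 had positive and 5 negative log2 fold changes (median 0.36), with 0 past the threshold. The 11 subunits that most tissues use, including Ndufa4, were all above 0 (0.32 to 0.91, median 0.58). The tissue-restricted isoforms and other paralogs were 9, of which 6 were tested, with 1 above 0 and 5 below (median -0.18). Cox6a1 had the highest level of all members at 1653, 1216 and 1067 FPKM in the knockout-labelled libraries, against 935, 2023 and 441 FPKM in WT libraries, and its groups overlapped fully (log2 fold change 0.45, SE 0.60, adjusted p = 0.846 in limma). Cox8a was at 1240, 934 and 911 FPKM in the knockout-labelled libraries, against 469, 1159 and 384 FPKM in WT libraries. Only WT library 2 reached the knockout range of Cox8a, and the log2 fold change was 0.78 (SE 0.50, adjusted p = 0.65). Cox4i1, the usual form of the largest nuclear-encoded subunit, averaged 624 ± 133 FPKM in the knockout-labelled libraries, against 472 ± 325 FPKM in WT libraries (SD, n = 3 each).

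Cox5a, a matrix-side subunit, had the highest log2 fold change of all members and one of the widest errors. It was at 68.6, 96.3 and 57.5 FPKM in the knockout-labelled libraries, against 30.5, 118 and 14.9 FPKM in WT libraries. The log2 fold change was 0.91 (SE 0.72, adjusted p = 0.718 in limma), 1.72 without WT library 2 and 0.26 without WT library 3. Cox6b1, Cox7b and Cox7a2 had log2 fold changes of 0.32, 0.66 and 0.36, all with SEs above 0.4. Cox7a2l, a relative of Cox7a2 that joins complexes III and IV into supercomplexes, had one of 0.26.

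Ndufa4 was one of the 2 members, with Atp5g1, for which all libraries labelled knockout lay above all WT libraries, as for 8.84% of all genes. Ndufa4 (ENSMUSG00000029632, GRCm38 chromosome 6, 11900292 to 11907497, minus strand) was at 69.5, 78.5 and 86.7 FPKM in the knockout-labelled libraries, against 42.2, 57.3 and 51.0 FPKM in WT libraries. The log2 fold change of 0.64 (SE 0.28, unadjusted p = 0.0567, adjusted p = 0.507 in limma) did not pass the threshold. Other settings gave 0.37 to 0.87. Unlike most members, Ndufa4 was lowest in WT library 1 and spanned little over WT (50.2 ± 7.60 FPKM, SD, n = 3). Its paralog Ndufa4l2, which hypoxia induces, averaged 1.36 ± 0.367 FPKM in the knockout-labelled libraries, against 1.38 ± 0.339 FPKM in WT libraries (SD, n = 3 each).

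The tissue-restricted isoforms of complex IV made up a small part of their pairs, apart from Cox7a1. Cox7a1, the form of striated muscle and brown fat, was at 50.6, 20.4 and 32.4 FPKM in the knockout-labelled libraries, against 36.7, 106 and 13.9 FPKM in WT libraries. It thus followed the common subunits, high in WT library 2 and low in WT library 3, with a log2 fold change of -0.23 (SE 0.73). Of the summed Cox7a1 and Cox7a2 level, Cox7a1 made up 10.8% ± 3.12 in the knockout-labelled libraries, against 15.4% ± 4.73 in WT libraries (SD, n = 3 each). Cox4i2, an isoform of lung and of oxygen-sensing cells, was at 2.11, 2.10 and 3.04 FPKM in the knockout-labelled libraries, against 2.52, 2.02 and 3.83 FPKM in WT libraries. Cox6b2, a testis isoform, was at 3.65, 2.01 and 5.54 FPKM in the knockout-labelled libraries, against 3.41, 3.21 and 10.5 FPKM in WT libraries. Both were highest in WT library 3, where most members were lowest. Cox6a2, the striated muscle form, had 0 to 2 reads per library labelled knockout and 0 to 8 per WT library.

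Cox8b had the smallest p of all members. It is the mouse form of heart, skeletal muscle and brown fat, and lies at GRCm38 chromosome 7, 140898945 to 140900446, on the minus strand (ENSMUSG00000025488). Cox8b was at 0.66, 0 and 0.17 FPKM in the knockout-labelled libraries, against 3.10, 1.26 and 8.81 FPKM in WT libraries, so the groups did not overlap. These values rest on 3, 0 and 1 reads in the knockout-labelled libraries, against 18, 6 and 41 reads in WT libraries. The log2 fold change was -1.85 (SE 0.54, unadjusted p = 0.0113, adjusted p = 0.352 in limma), and -3.63 with a pseudocount of 0.1 in place of 1, since the pseudocount weighs heavily on a gene near 0. The adjusted p over the alternatives was between 0.0368, with a weight per library, and 1.0. Muscle markers had negative log2 fold changes as well. All 12 smooth muscle markers had negative log2 fold changes (median -2.13). For 11 of them each knockout-labelled library lay below each WT library, against 7.89% of all genes. The 12 ran together, all highest in WT library 3 and lowest in knockout library 2. Of 14 striated muscle markers only 2 were tested, both with negative log2 fold changes, and the list summed to 4.0 to 5.5 FPKM in the knockout-labelled libraries, against 6.3 to 12.8 FPKM in WT libraries, with 3 of the 14 at 0 in every library. Of 9 adipocyte markers 4 were tested, all with negative log2 fold changes, but the groups overlapped for each of the 4. By limma 0 of the 4 had an unadjusted p under 0.05, against 4.03% of all genes lower. The list summed to 8.31 to 28.3 FPKM in the knockout-labelled libraries, against 28.4 to 43.3 FPKM in WT libraries. The 43.3 FPKM came from WT library 2, where Cidec alone was at 39.4 FPKM. Markers at 0 numbered 1, 5 and 5 of the 9 in knockout-labelled libraries 1 to 3, against 1, 5 and 3 in WT libraries. Ucp1, which defines brown fat, was at 0 in every library. The part of these cells in the Cox8b difference was not tested.

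**Figure D4:**
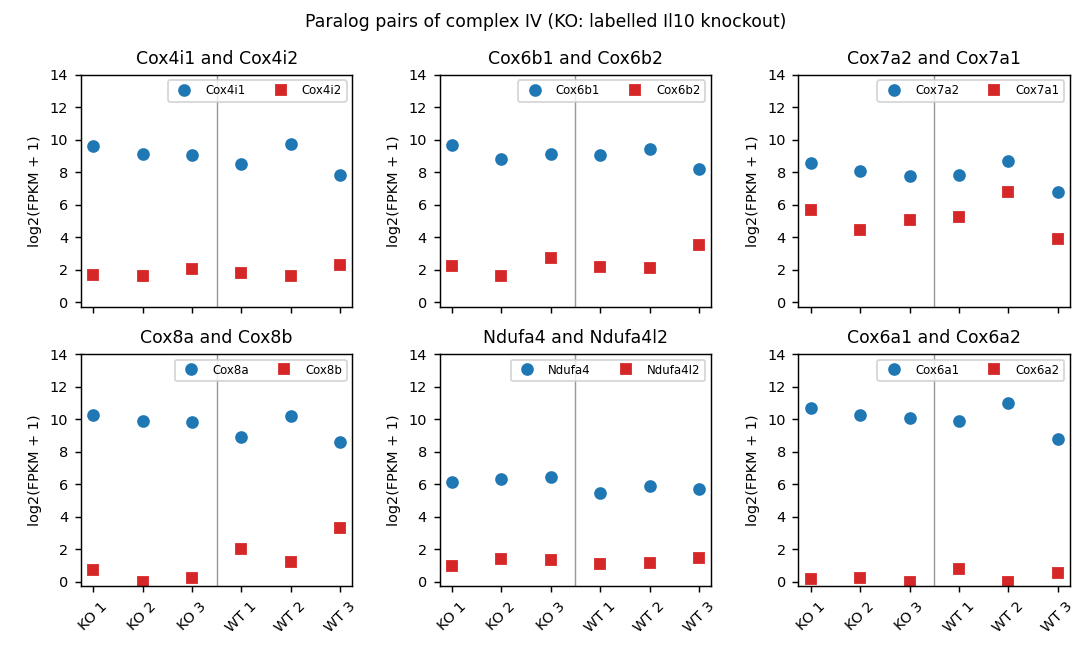
Log2(FPKM + 1) in each library of 6 pairs of complex IV paralogs, the common form as blue circles and the restricted form as red squares, libraries labelled Il10 knockout left of WT. The restricted forms lie far below their partners except Cox7a1, and Cox8b is lower in each library labelled knockout (0 to 0.66 FPKM) than in each WT library (1.26 to 8.81 FPKM).

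Complex V, ATP synthase, had 18 members, of which 17 were tested, 16 with positive and 1 with a negative log2 fold change (median 0.40), and 0 passed the threshold. The F1 head and central stalk (Atp5a1, Atp5b, Atp5c1, Atp5d and Atp5e) had a median of 0.47, the peripheral stalk one of 0.36 and the small membrane subunits one of 0.39. Atp5a1 and Atp5b, which together form the catalytic head, were high in every library. Atp5a1 was at 286, 340 and 238 FPKM in the knockout-labelled libraries, against 169, 413 and 120 FPKM in WT libraries. Atp5b was at 192, 250 and 194 FPKM in the knockout-labelled libraries, against 111, 289 and 94.2 FPKM in WT libraries (log2 fold change 0.54, SE 0.48, adjusted p = 0.755 in limma). For both, WT library 2 was above and WT libraries 1 and 3 below all libraries labelled knockout. Atp5h, of the peripheral stalk, averaged 229 ± 59.3 FPKM in the knockout-labelled libraries, against 189 ± 40.2 FPKM in WT libraries (SD, n = 3 each).

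The genes Atp5g1, Atp5g2 and Atp5g3 encode the same mature protein of the rotating c-ring from different precursors. Atp5g1 (ENSMUSG00000006057, GRCm38 chromosome 11, 96068852 to 96075670, minus strand) was at 68.8, 52.6 and 65.2 FPKM in the knockout-labelled libraries, against 39.5, 49.9 and 19.1 FPKM in WT libraries. Its groups did not overlap, the log2 fold change was 0.86 (SE 0.40, unadjusted p = 0.0703, adjusted p = 0.524 in limma), and other settings gave 0.47 to 1.14. Atp5g3 was at 241, 242 and 175 FPKM in the knockout-labelled libraries, against 126, 295 and 60.9 FPKM in WT libraries. Atp5g2 was at 79.8, 66.3 and 76.2 FPKM in the knockout-labelled libraries, against 55.8, 87.4 and 54.4 FPKM in WT libraries, one of the steadiest members. Atp5g1 made up 17.6% ± 3.01 of the summed level of the 3 genes in the knockout-labelled libraries, against 14.5% ± 3.15 in WT libraries, and Atp5g2 made up 21.0% ± 2.89 in knockout-labelled libraries, against 28.6% ± 10.6 in WT libraries (SD, n = 3 each). The shares were given no test.

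Atp5s, named for coupling factor B and not part of the purified enzyme's core, was the 1 member of complex V with a negative log2 fold change. It was at 3.96, 3.62 and 4.63 FPKM in the knockout-labelled libraries, against 7.41, 4.05 and 7.40 FPKM in WT libraries. WT library 2 lay inside the knockout range, and the log2 fold change was -0.49 (SE 0.27, adjusted p = 0.584 in limma).

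Most negative values belonged to members of low level. Of the 7 tested members with a mean under 10 FPKM, 6 had negative log2 fold changes (Cox8b, Ndufb2, Atp5s, Cox6b2, Cox4i2 and Ndufa4l2) and 1, Ndufs1, a positive one. Of the 76 others, 4 were negative (Ndufa2, Ndufa5, Ndufc1 and Cox7a1). Among all 8633 genes with a mean of 1 to 10 FPKM, 52.7% were negative, and the difference between the members of low and high level was not tested. Levels ranged widely within a complex, with 39 members at a mean of 100 FPKM or more and 37 between 10 and 100 FPKM, although the subunits are thought to assemble in fixed numbers. Opposite-strand genes overlapped 27 of the 83 tested members, and their reads cannot be separated here without a strand setting. Named pseudogenes of members held few reads: of 8 in the table, Atp5k-ps2 had the most relative to its parent, 0.386% of the reads of Atp5k.

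Other mitochondrial gene lists showed no member past the threshold either, by limma over all genes. Of 47 assembly factors, which build the complexes but are not part of them, 40 were tested, 20 with positive and 20 with negative log2 fold changes (median -0.00049). Against 6.14% of all genes higher and 4.03% lower, 0 of the 40 had an unadjusted p under 0.05. Their smallest p values belonged to Cox16, of complex IV assembly (log2 fold change 0.65, SE 0.30, adjusted p = 0.517), and Sdhaf4, of complex II assembly (log2 fold change -0.56, SE 0.27, adjusted p = 0.529). The groups did not overlap for either, as for 8.84% of all genes with knockout above WT and 7.89% with knockout below. Sdhaf4 averaged 9.09 ± 0.657 FPKM in the knockout-labelled libraries, against 14.2 ± 4.32 FPKM in WT libraries (SD, n = 3 each). The assembly factors were thus split evenly where the subunits were mostly above 0, and the difference between the lists was not tested.

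Of 14 regulators of mitochondrial biogenesis 13 were tested, 3 with positive and 10 with negative log2 fold changes (median -0.08). By limma 1 of the 13 was higher and 0 lower at an unadjusted p under 0.05, against 6.14% and 4.03% of all genes. The higher one was Perm1, a regulator first described in muscle. It was at 2.15, 2.67 and 1.59 FPKM in the knockout-labelled libraries, against 1.22, 0.913 and 0.873 FPKM in WT libraries (log2 fold change 0.64, SE 0.24, adjusted p = 0.455 in limma). Esrra, the nuclear receptor that drives respiratory chain genes together with the PGC-1 coactivators, was at 83.9, 74.4 and 57.1 FPKM in the knockout-labelled libraries, against 34.6, 83.7 and 30.2 FPKM in WT libraries, the same order of WT libraries as for the subunits. Nrf1 and Gabpa, whose motifs were searched above, were steady, at 2.02 ± 0.304 and 4.38 ± 0.619 FPKM in the knockout-labelled libraries, against 2.23 ± 0.205 and 5.11 ± 0.788 FPKM in WT libraries (SD, n = 3 each). Tfam, which packages mitochondrial DNA, was at 6.85 ± 0.527 FPKM in the knockout-labelled libraries, against 7.15 ± 0.251 FPKM in WT libraries (SD, n = 3 each).

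The 13 citric acid cycle genes had 10 positive and 3 negative log2 fold changes (median 0.14). The smallest p values were those of Cs, citrate synthase, at 0.54 (SE 0.38, adjusted p = 0.68 in limma) and Mdh2 at 0.53 (SE 0.42, adjusted p = 0.724). Of 9 carriers and porins 7 were tested, 5 with positive values (median 0.26). Slc25a5, an ADP/ATP carrier, was at 602, 604 and 418 FPKM in the knockout-labelled libraries, against 355, 711 and 147 FPKM in WT libraries, again with WT library 2 highest and WT library 3 lowest. Vdac2, an outer membrane porin, had a log2 fold change of 0.68 (SE 0.46). The 11 genes of coenzyme Q synthesis had 4 positive and 7 negative values (median -0.13). Coq2 was at -0.54 and Coq7 at 0.51, neither past the threshold (adjusted p = 0.503 and 0.507 in limma). For both the groups did not overlap, as for 7.89% of all genes with knockout below WT and 8.84% with knockout above.

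The 13 subunits encoded by mitochondrial DNA took the opposite course within WT. Their mean log2(FPKM + 1) was 11.75, 9.95 and 10.90 in the knockout-labelled libraries, against 10.71, 10.21 and 12.18 in WT libraries, so WT library 3, lowest for the nuclear-encoded members, was the highest here. The gap between mitochondrially and nuclear-encoded means was 5.02, 3.62 and 4.55 log2 units in the knockout-labelled libraries, against 4.60, 3.41 and 6.47 in WT libraries. Reads of mitochondrial genes were 22.0%, 8.61% and 15.5% of the libraries labelled knockout, against 20.3%, 11.7% and 43.4% of WT libraries. By log2 fold change 3 of the 13 were positive and 10 negative (median -0.30). An unadjusted p under 0.05 by limma was reached by 0 of them, against 6.14% of all genes higher and 4.03% lower. mt-Co3, a catalytic-core subunit of complex IV, was at 1776, 801 and 935 FPKM in the knockout-labelled libraries, against 629, 576 and 928 FPKM in WT libraries (log2 fold change 0.66, SE 0.45, adjusted p = 0.664 in limma). mt-Co1, which holds the oxygen-reducing site, was at 82857, 26850 and 42983 FPKM in the knockout-labelled libraries, against 56141, 60531 and 166052 FPKM in WT libraries (log2 fold change -0.85, SE 0.66, adjusted p = 0.714). The groups overlapped for both. The median of the nuclear-encoded members stood above that of all genes by 0.29 as deposited, by 0.25 with an equal sum over nuclear genes, by 0.04 with quantile normalization and by 0.05 without WT library 3. The part of the mitochondrial reads in these values was not tested.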

How the data were processed

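Colon RNA of 3 libraries labelled IL10-/- and 3 labelled wild type was analysed, grouped by sample titles. The authors deposited FPKM values for 54532 genes, with gene lengths per the file headers. Bowtie 0.12.2 and the builds hg38 and mm8 appear in the submitters' processing notes; what each was used for, the counting tool and the strand setting are not given there. Coordinates are given as GRCm38, since 98.3% of the 54409 genes found in GENCODE M21 had identical ones. Multiplying FPKM by gene length gave whole reads, after division by the smallest step of each library, for 100% of values above 0 (tolerance 0.01 reads). Chi-square per gene was 60.7 or more for every pair of libraries, so none was counted as a repeat.

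Values were taken as log2(FPKM + 1) for 12668 genes with a mean of at least 1 FPKM and fitted with limma 3.58.1 (eBayes with the mean trend) in R 4.3.3, without a replicate block, with Benjamini-Hochberg adjustment over all genes at 0.05. The fit was tested on simulated data. TMM factors were computed in R, and tables and figures used Python 3.11.15, pandas 2.3.3 and matplotlib 3.10.9. The fit was repeated under 20 other settings and 1 more chosen after seeing the data. Members and lists were chosen with earlier results of these data known. In each complex the 3 members with the smallest p, the 2 with the highest mean, paralog groups and catalytic or core subunits were named, with the 2 smallest p of each other list. Motifs, the grouping of subunits by role, and Nrf1, Gabpa, Tfam, Ndufa5 and Ndufc1 were chosen after their values were seen.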

Additional observations from a re-analysis of the deposited data

How the results depend on the processing

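No member was called higher under any of the 21 alternatives, and the 1 called lower was Cox8b with a weight per library (-1.95, adjusted p = 0.0368). Counts of all genes called higher, 23 as reported, were 9 with a pseudocount of 0.01, 4 with no filter, 44 with TPM, 237 with a weight per library, 2 with voom and 7 with the replicate block. They were 4 to 27 when 1 library was left out, and 5 without WT libraries 2 and 3. Genes called lower, 0 as reported, numbered 1 at a mean of at least 5 FPKM, with quantile normalization, with an equal sum over nuclear genes and without WT libraries 2 and 3, 2 with TPM and 94 with a weight per library, and 0 to 3 with 1 library left out.

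Members higher at an unadjusted p under 0.05, 0 as reported, numbered 1 with a pseudocount of 0.01, no filter, a mean of at least 0.1 FPKM or no trend, 23 with a weight per library (16.5% of all genes) and 8 without WT libraries 2 and 3 (8.05% of all genes). They numbered 0 to 31 with 1 library left out, and the 31 came without WT library 2, where 14.8% of all genes were higher at that threshold. Members lower, 2 as reported (4.03% of all genes), numbered 0 at a mean of at least 5 FPKM (2.54%) and 1 with TPM (4.32%). With a weight per library 3 were lower (10.5% of all genes), and 1 to 3 with 1 library left out (1.14% to 8.77%). Members above 0, 73 as reported, numbered 45 with quantile normalization and 50 to 76 with 1 library left out. Weights per library were 2.76, 0.198 and 0.465 for WT libraries 1 to 3, and the fit without WT libraries 2 and 3 assumes that WT library 1 varies like the knockout ones. The cause of these shifts was not tested.

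With 1 library left out, the members' median was 0.06 to 0.62, lowest without WT library 3 and highest without WT library 2, and 0.18 without knockout library 1. Medians were 0.05 to 0.47 for complex I, -0.03 to 0.73 for complex II, 0.01 to 0.76 for complex III, 0.10 to 0.67 for complex IV and 0.08 to 0.85 for complex V. With quantile normalization complex I was at -0.01 and complex II at -0.0081. TPM moved the median of all genes to 0.15 and that of the members to 0.43. Of 40 named members with a fit, 20 kept their sign under every alternative.

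Replicate numbers are shared between the groups, and the correlation of deviations of same-numbered libraries was -0.15, 0.18 and 0.40 for numbers 1 to 3. Number 1 did not deviate together, so the numbers were not taken to pair the libraries; with the replicate block 0 members were called and 7 genes in all.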
